A study of Mus musculus with 14 samples.

Results

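The Skint family is a group of membrane proteins of the butyrophilin-like class, made mainly by keratinocytes and by thymic epithelial cells. The 10 members described here, Skint1 to Skint7 and Skint9 to Skint11, were chosen by gene symbol, with no measured value in the rule, from the 56953 genes of a count table of mouse skin. All 10 had enough counts to enter the test, out of 16027 genes tested. On the 5 knockout libraries alone only 3 of them, Skint3, Skint4 and Skint7, pass the filter on low counts. The other 7, Skint1, Skint2, Skint5, Skint6, Skint9, Skint10 and Skint11, entered through the control groups.

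The table holds 14 libraries in 6 groups. Wild type C57BL/6J skin is represented by 2 DMSO libraries and 2 imiquimod libraries (IMQ in the labels). Mice of the genotype NEDD8fl/fl, K14-CreERT neg, which carry loxP-flanked Nedd8 and no recombinase and are called Cre-negative here, are represented by 3 DMSO and 2 imiquimod libraries. Mice of the genotype NEDD8fl/fl, K14-CreERT pos, which carry the same alleles and an inducible recombinase under the keratin 14 promoter of basal keratinocytes, are called knockout here as labelled. They, too, are represented by 3 DMSO and 2 imiquimod libraries. NEDD8 is a ubiquitin-like protein whose attachment to cullins activates cullin-RING ubiquitin ligases, and the series title names its role in epithelial homeostasis and inflammation. Imiquimod, a Toll-like receptor 7 agonist, was put on the skin each day as a 5% cream from day 0 to day 7, and it gives mice a psoriasis-like inflammation. The knockout mice were induced on 5 days before that, and whether the other mice received the inducing agent is not stated. The labels allow back or ear skin and do not say which library is which, give no age, and describe no group with a cream base alone. Nothing says that replicates came from separate animals, so p-values measure the spread between these libraries, which may be technical.

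As background, Skint proteins have immunoglobulin-like domains outside the cell and several membrane-spanning segments. Skint1, the founding member, is needed in the thymus for the selection of the dendritic epidermal T cells, the gamma-delta T cells with a Vγ5Vδ1 receptor that occupy mouse epidermis. Roles of the other members are less well defined, and the genes lie together in 1 cluster.

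The cluster lies on chromosome 4. In the deposited annotation, which has GRCm39 positions, 11 rows with a Skint name span 111776595 to 114102225, or 2.33 Mb. Skint1 (ENSMUSG00000089773.8) spans 111863466 to 111886735 on the plus strand, Skint3 (ENSMUSG00000070868.12) 112089442 to 112157665 on the plus strand, Skint6 (ENSMUSG00000087194.10) 112661860 to 113140839 on the minus strand, Skint5 (ENSMUSG00000078598.12) 113335088 to 113856700 on the minus strand, and Skint7 (ENSMUSG00000049214.14) 111830120 to 111845420 on the plus strand. Skint8, the row outside the members, had 45 counts in all libraries together and was not tested. The division of tags between near-identical members is uncertain, because the treatment of multi-mapping reads is not given in the sources used here.

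The upstream windows of 5 members are printed first, because they include closely similar windows of genes whose values are set side by side below. They are the 250 bases before the annotated start, read 5′ to 3′ on the strand of the gene from RefSeq on GRCm38.p6, where all 10 members have an entry. Skint5 lies at chr4:113999504-113999753 on the minus strand and Skint6 at chr4:113286974-113287223 on the minus strand. The windows of Skint5 and Skint6 align over 248 bases with 222 identical (89.5%), and capitals mark the 26 bases that differ.
Skint5: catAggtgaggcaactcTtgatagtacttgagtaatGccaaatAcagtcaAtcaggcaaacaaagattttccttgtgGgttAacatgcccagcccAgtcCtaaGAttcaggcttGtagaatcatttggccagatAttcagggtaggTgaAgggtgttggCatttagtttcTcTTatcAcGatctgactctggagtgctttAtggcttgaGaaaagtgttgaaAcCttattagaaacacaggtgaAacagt
Skint6: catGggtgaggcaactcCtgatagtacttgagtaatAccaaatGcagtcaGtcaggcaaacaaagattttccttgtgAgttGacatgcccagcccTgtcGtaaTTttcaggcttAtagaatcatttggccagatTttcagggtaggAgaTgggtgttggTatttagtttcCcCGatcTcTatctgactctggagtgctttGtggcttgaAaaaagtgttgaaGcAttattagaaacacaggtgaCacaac

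Skint10 (chr4:112774862-112775111, minus strand) and Skint11 (chr4:114163134-114163383, plus strand) align over 197 bases with 175 identical (88.8%). Skint9 (chr4:112433986-112434235, minus strand) aligns with Skint10 over 149 bases with 131 identical (87.9%). Capitals mark TGACTCA in Skint11, 15 bases before the start, and the letters aligned with it, TGGCTCA, 66 bases before the start of Skint10 and 105 bases before the start of Skint9.
Skint10: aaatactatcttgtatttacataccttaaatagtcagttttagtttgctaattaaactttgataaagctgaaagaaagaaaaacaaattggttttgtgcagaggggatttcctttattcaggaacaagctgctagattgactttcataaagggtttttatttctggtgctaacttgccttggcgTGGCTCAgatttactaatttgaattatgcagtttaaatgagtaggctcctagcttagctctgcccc
Skint11: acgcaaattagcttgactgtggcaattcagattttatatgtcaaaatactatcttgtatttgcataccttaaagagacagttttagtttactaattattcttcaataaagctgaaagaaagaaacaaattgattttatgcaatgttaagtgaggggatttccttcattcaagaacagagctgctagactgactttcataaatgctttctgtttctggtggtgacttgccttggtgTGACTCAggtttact
Skint9: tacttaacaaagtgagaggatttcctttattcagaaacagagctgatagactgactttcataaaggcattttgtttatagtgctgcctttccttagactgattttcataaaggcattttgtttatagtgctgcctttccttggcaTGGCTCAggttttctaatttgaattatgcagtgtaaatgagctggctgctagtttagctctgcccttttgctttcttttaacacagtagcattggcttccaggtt

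TGACTCA matches TGANTCA, the core letters of AP-1 sites. Searched on both strands, TGANTCA occurred in 6.75% of 32851 windows of this length over all genes, and among the members in the window of Skint11 alone. The letters TTGCNNAA of C/EBP-like sites occurred in 9.56% of all windows and in those of Skint2 and Skint11. The letters AACCNGTT of grainyhead-like sites occurred in 1.79% of all windows and in 0 of the members' windows. TATAAA occurred in 12.4% of all windows and in those of 6 members, counting a second start of Skint4. The window of Skint7 (chr4:111972677-111972926, plus strand) is printed because its imiquimod values are described in full below, and capitals mark TTTATA, the reverse complement of TATAAA, 31 bases before the start. A match of letters is a description and does not show that a factor binds.
Skint7: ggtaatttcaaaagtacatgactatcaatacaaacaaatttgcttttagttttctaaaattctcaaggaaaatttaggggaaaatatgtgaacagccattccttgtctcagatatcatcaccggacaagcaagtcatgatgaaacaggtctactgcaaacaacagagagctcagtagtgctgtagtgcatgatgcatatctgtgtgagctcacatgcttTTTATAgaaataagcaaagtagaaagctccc

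Libraries held 5552954 to 34362477 counts, and 18S ribosomal RNA took 3.84% to 19.1% of them. The share was highest in Cre-negative imiquimod replicate 2 (19.1%) and knockout DMSO replicate 1 (17.5%). Nedd8 itself read 375, 158 and 147 CPM (a tag count relative to the library size, scaled between libraries by TMM) in the knockout DMSO libraries and 360, 290 and 291 CPM in the Cre-negative DMSO libraries, a log2 difference of -0.47 ± 0.40 (SE, edgeR adjusted p = 0.4). Knockout replicate 1 stood above all 3 Cre-negative libraries, so Nedd8 does not separate the labels. The deleted part of Nedd8 is not given in the sources used here, a 3′ tag outside it checks nothing, and skin holds cells without the recombinase. Xist and Y-linked reads showed the wild-type and knockout DMSO libraries to be female, the imiquimod libraries of Cre-negative and knockout mice to be male, and the Cre-negative DMSO libraries to be male in replicates 1 and 2 and female in replicate 3. All 14 basal and 19 suprabasal keratinocyte marker genes found in the table had counts in every group.

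Family tags were found in all 14 libraries, 844 to 7144 in each control library and 25 to 660 in each knockout library. Its summed level was 373 ± 131 CPM (SD, n = 3) in Cre-negative DMSO skin and 269 ± 83.6 CPM (n = 2) in wild-type DMSO skin, and the ranges of 271 to 521 and 210 to 328 CPM overlap. Imiquimod libraries followed with 101 ± 31.3 CPM (n = 2) in Cre-negative and 64.8 ± 35.4 CPM (n = 2) in wild-type skin, ranges of 79 to 123 and 39.7 to 89.8 CPM that also overlap. Knockout DMSO skin had 14.2 ± 3.88 CPM (n = 3, 11.5 to 18.6), and knockout imiquimod skin 2.63 ± 1.03 CPM (n = 2, 1.9 to 3.36). Neither knockout range overlapped any other group. Counts behind these levels were 7509, 1997, 18002 and 2033 in the wild-type DMSO, wild-type imiquimod, Cre-negative DMSO and Cre-negative imiquimod groups, against 833 and 63 in knockout DMSO and imiquimod skin. The last group therefore gives the least precise values, and a gene with 0 counts there is bounded by 3 counts over the group, or 0.123 CPM. In bulk skin, fewer keratinocytes of a kind and less RNA in each cannot be told apart.

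**Figure D1:**
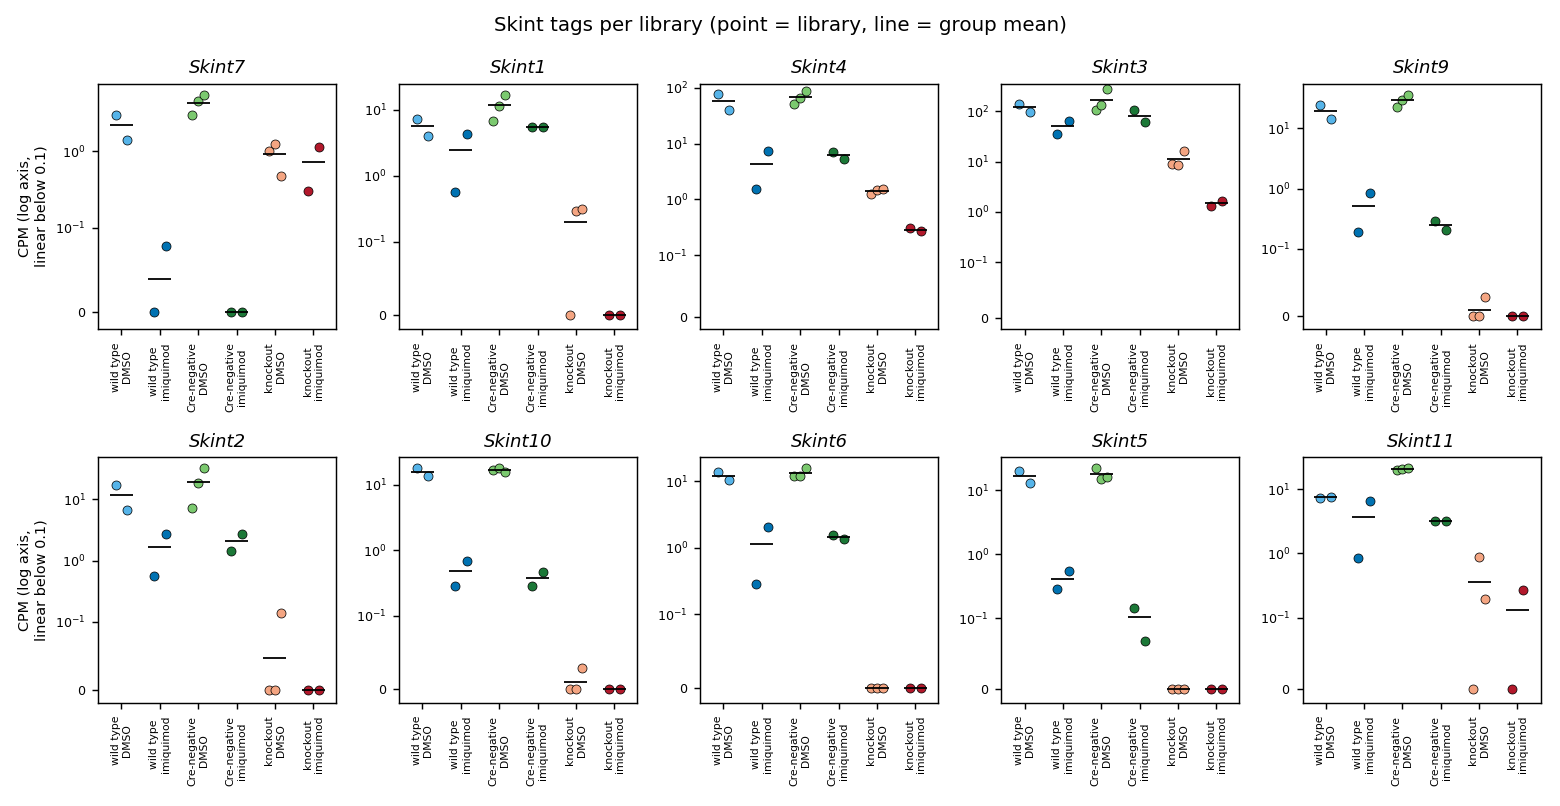
Level of each Skint member in the 14 libraries, in their order along the chromosome. The vertical axis is CPM on a log scale that turns linear below 0.1, points are libraries and lines group means. Knockout points lie below both DMSO control groups for all 10 members, and Skint7 is the member whose control imiquimod points lie at or near 0 while its knockout points do not.

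The first question is what loss of NEDD8 in keratinocytes, as labelled, did to the family in skin without imiquimod. All 10 members were lower in knockout than in Cre-negative DMSO skin past the threshold (edgeR quasi-likelihood test, Benjamini-Hochberg adjusted p from 1.9e-06 to 0.014), with a median log2 fold change of -6.68 beside -0.06 over all genes. Among all genes tested, 15.7% were called lower and 29.6% in either direction. In all 10 members the 2 groups' libraries did not overlap, which held for 26.5% of all genes in this direction. The 7 members that entered through the control groups had to differ, so the count of 10 and the median describe the members and support nothing.

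Skint5 read 22, 15.2 and 16.4 CPM in the Cre-negative libraries and had 0 counts in all 3 knockout libraries. Skint6 read 12, 12 and 15.7 CPM against 0 counts in all 3. Skint5 and Skint6, whose upstream windows are 89.5% identical where aligned, were thus without a tag in knockout skin, where 3 counts over the group are the floor. Skint10 and Skint11, with windows 88.8% identical where aligned, had 1 and 16 counts in knockout DMSO skin. Skint5 was at least 296-fold and Skint6 at least 220-fold lower (adjusted p = 5.96e-06 and 8.05e-05). Skint9 went from 22.3, 29.3 and 35.8 CPM to 0, 0 and 0.0282 CPM, a single count in knockout skin. Its ratio was 1420, with a 95% counting interval of 254 to 56100. Skint10 went from 17.1, 17.9 and 16 CPM to 0, 0 and 0.0282 CPM, again 1 count, a ratio of 848 (152 to 33500). Those 4 genes, and no other member, lie on the minus strand of the cluster, an observation made after the values were seen.

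Skint3 and Skint4, which took most of the family's tags in control skin, kept tags in every knockout library. Skint3 read 108, 134 and 271 CPM in Cre-negative and 9.17, 8.54 and 15.9 CPM in knockout skin, a log2 fold change of -3.91 ± 0.44 (SE, adjusted p = 5.08e-05). Skint4 read 51.8, 66.3 and 89.5 CPM against 1.27, 1.46 and 1.52 CPM, a log2 fold change of -5.57 ± 0.55 (adjusted p = 1.66e-05). The groups stood far apart for both genes, with the knockout libraries close together for Skint4. Skint1, the thymic selection gene, read 6.65, 11.2 and 16.9 CPM against 0, 0.291 and 0.31 CPM, a log2 fold change of -5.42 ± 0.80 (adjusted p = 0.000416). Skint2 read 7.32, 18.3 and 32.1 CPM against 0, 0 and 0.141 CPM (-7.59 ± 0.98, adjusted p = 0.000175). Skint11 read 20.1, 20.6 and 21.1 CPM against 0, 0.873 and 0.197 CPM (-5.76 ± 0.85, adjusted p = 0.000324). Cre-negative replicate 3 was the highest library of its group for these 5 genes, and is the female one of that group.

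Skint7 had the smallest fall. It read 2.96, 4.49 and 5.54 CPM in Cre-negative and 1.02, 1.26 and 0.479 CPM in knockout DMSO skin, a log2 fold change of -2.33 ± 0.62 (adjusted p = 0.0139). The call was lost without knockout replicate 3, the lowest library (-1.88, adjusted p = 0.0731), and with a sex term (-2.69, adjusted p = 0.0525). Skint8 had 30 counts in Cre-negative and 0 in knockout DMSO skin, at least 10.5-fold lower, with no test.

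Wild-type DMSO skin serves as a control of the same sex as the knockout libraries. Against it 9 of 10 members were lower, with a median of -6.12, beside 14.4% of all genes called lower and 25.6% in either direction. Libraries did not overlap for all 10 members, as for 29.6% of all genes in this direction. This comparison shares the knockout libraries with the one before. The 7 members that entered through the control groups had to differ here too, so the count of 9 and the median describe the members and support nothing. Skint5 read 20.3 and 12.9 CPM and Skint6 14 and 10.4 CPM in wild-type skin, so Skint5 was at least 275-fold and Skint6 at least 203-fold lower in knockout skin. Skint3, at 140 and 98.9 CPM, gave -3.39 ± 0.46 (adjusted p = 0.000224), and Skint1, at 7.32 and 3.96 CPM, gave -4.37 ± 0.82 (adjusted p = 0.00253). Skint7, at 3.01 and 1.39 CPM, did not pass (-1.33 ± 0.68, adjusted p = 0.169).

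Between the control genotypes with DMSO, edgeR called 0 of 10 members and 0.00% of all genes, while 6.99% of all genes (1120) and 0 members had an unadjusted p under the threshold. DESeq2 called 144 genes and 0 members. The members' median was 0.56 beside 0.01 over all genes. Skint11 stood out as the only member without overlap, at 20.1, 20.6 and 21.1 CPM in Cre-negative and 7.32 and 7.57 CPM in wild-type skin (1.47 ± 0.73, adjusted p = 0.79). Libraries without overlap in this direction made up 16.1% of all genes.

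The second question is how the family responds to imiquimod in skin with NEDD8. In wild-type skin 7 of 10 members were lower with imiquimod (median -3.62, all genes -0.09), beside 11.8% of all genes called lower, 9.59% higher and 21.4% in either direction. In Cre-negative skin 8 of 10 were lower (median -3.34, all genes -0.06), beside 10.1% called lower, 8.15% higher and 18.2% in either direction. No member was called higher in either genotype. Libraries without overlap were found for 9 members in wild-type skin, where Skint1 overlapped, and for 10 in Cre-negative skin, as for 34.3% and 29.5% of all genes in this direction. Skint5, Skint7, Skint9 and Skint10 had 13, 1, 15 and 15 counts over the wild-type imiquimod group. In Cre-negative imiquimod skin they had 2, 0, 5 and 9. Genes this low with imiquimod entered the test through groups where they were higher. The counts of members and the medians therefore describe the members and support nothing.

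Skint5, Skint9 and Skint10, each with at most 1 count in knockout DMSO skin, fell strongly with imiquimod. Skint5 went from 20.3 and 12.9 CPM to 0.283 and 0.545 CPM in wild-type skin (-5.35 ± 0.54, adjusted p = 0.000218). In Cre-negative skin it went from 22, 15.2 and 16.4 CPM to 0.143 and 0.0673 CPM, which is 2 counts, a ratio of 196 (54.1 to 1620; adjusted p = 6.88e-05). Skint9 went from 24 and 14.4 CPM to 0.188 and 0.857 CPM in wild-type skin (-5.29 ± 0.62, adjusted p = 0.000245). In Cre-negative skin its imiquimod libraries read 0.287 and 0.202 CPM (-6.92 ± 0.69, adjusted p = 5.9e-05). Skint10 read 17.9 and 13.5 CPM, then 0.283 and 0.701 CPM, in wild-type skin (-5.04 ± 0.51, adjusted p = 9.85e-05). It read 0.287 and 0.471 CPM with imiquimod in Cre-negative skin (-5.38 ± 0.52, adjusted p = 4.93e-05). The groups of these genes stood apart in both genotypes.

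A middle set comprised Skint4, Skint6 and Skint2. Skint4 fell from 77.6 and 39.9 CPM to 1.51 and 7.25 CPM in wild-type skin (-3.77 ± 0.60, adjusted p = 0.00123), and its Cre-negative imiquimod libraries read 7.03 and 5.31 CPM (-3.50 ± 0.57, adjusted p = 0.00129). Skint6 read 0.283 and 2.03 CPM with imiquimod in wild-type skin (-3.47 ± 0.71, adjusted p = 0.00775) and 1.58 and 1.35 CPM in Cre-negative skin (-3.19 ± 0.68, adjusted p = 0.00963). Skint2 read 17.2 and 6.83 CPM, then 0.565 and 2.73 CPM, in wild-type skin (-2.90 ± 0.85, adjusted p = 0.0295). Its Cre-negative imiquimod libraries read 1.43 and 2.76 CPM (-3.15 ± 0.82, adjusted p = 0.0194). Wild-type imiquimod replicate 1 was the lower library for each of these 3 genes.

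Of these calls, that of Skint2 was lost in wild-type skin without DMSO replicate 1 (-2.03, adjusted p = 0.177) or imiquimod replicate 1 (-2.13, adjusted p = 0.196). With the compared groups alone the wild-type call of Skint2 was also lost (-2.90, adjusted p = 0.0627). In Cre-negative skin the call of Skint2 was lost without DMSO replicate 3 (-2.57, adjusted p = 0.0552) and with a sex term (-2.57, adjusted p = 0.0521). It was lost as well without imiquimod replicate 1 (-2.71) or imiquimod replicate 2 (-3.74), which leaves 1 library in that group. The Cre-negative call of Skint6 was lost without imiquimod replicate 1 (-3.20, adjusted p = 0.0543) or replicate 2 (-3.06, adjusted p = 0.0886).

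Skint1, Skint3 and Skint11 changed least. Skint1 read 7.32 and 3.96 CPM with DMSO and 0.565 and 4.29 CPM with imiquimod in wild-type skin (-1.24 ± 0.75, adjusted p = 0.252), and 5.45 CPM in both Cre-negative imiquimod libraries (-1.09 ± 0.69, adjusted p = 0.29). Skint3 read 35.2 and 64.8 CPM with imiquimod in wild-type skin (-1.25 ± 0.49, adjusted p = 0.081) and 104 and 60.1 CPM in Cre-negative skin (-1.06 ± 0.45, adjusted p = 0.119). Neither passed in either genotype, although a miss of the threshold does not show that they did not change. Skint11 read 0.848 and 6.55 CPM with imiquimod in wild-type skin (-1.04 ± 0.79, adjusted p = 0.361). In Cre-negative skin it read 3.16 and 3.23 CPM (-2.69 ± 0.79, adjusted p = 0.0323). Each of the 5 libraries, left out in turn, ended that call (-2.71 to -2.58), as did a sex term (-2.67, adjusted p = 0.0593). Wild-type imiquimod replicate 2 was the higher library for all 3 genes. Without it, Skint1 gave -3.20 (adjusted p = 0.0195) and Skint11 -3.03 (adjusted p = 0.0288).

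Skint7 lost its tags with imiquimod in both control genotypes. In wild-type skin it went from 3.01 and 1.39 CPM to 0 and 0.0779 CPM, a single count and a ratio of 65.5 (11.3 to 2630; adjusted p = 0.00371), a call that ended without imiquimod replicate 1 (-4.65, adjusted p = 0.0547). In Cre-negative skin it went from 2.96, 4.49 and 5.54 CPM to 0 in both libraries, at least 31.5-fold lower (adjusted p = 0.00124).

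**Figure D2:**
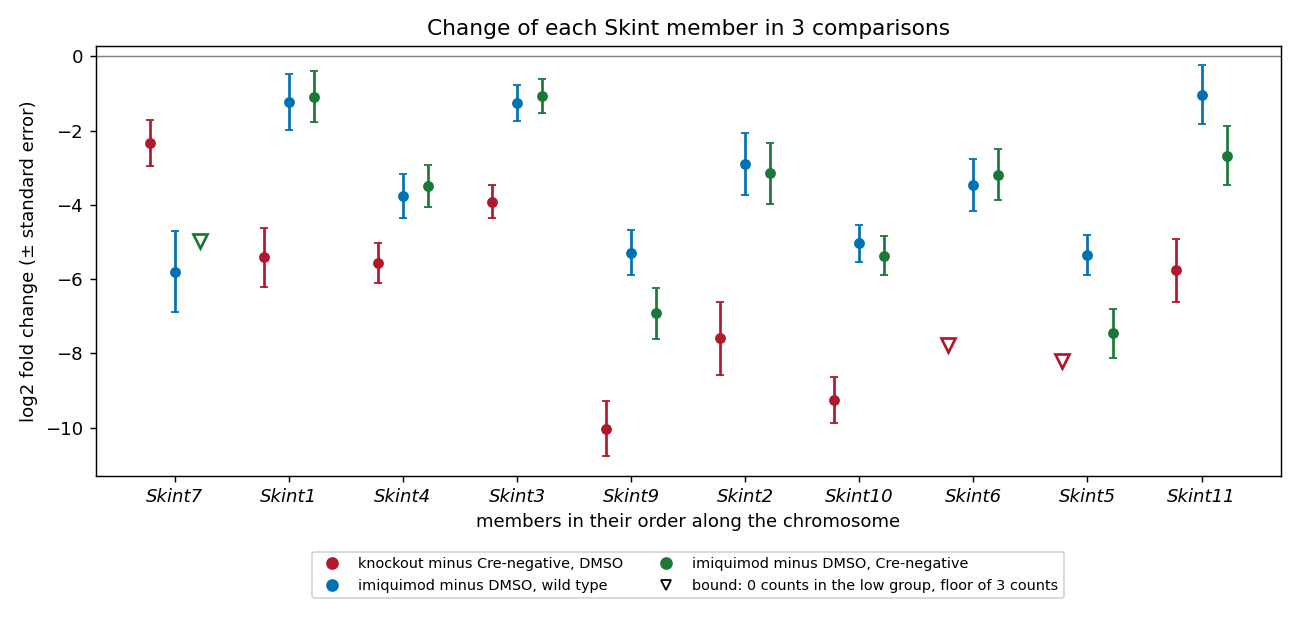
Log2 fold change of each member in 3 comparisons, with standard errors. Open triangles are bounds for groups with 0 counts, computed from the floor of 3 counts, and points for Skint9, Skint10, Skint5 and Skint7 beside a group of 1 or 2 counts depend on the fit's small prior count. Knockout values (red) lie below both imiquimod values (blue, green) for all members except Skint7.

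With imiquimod the knockout libraries held few family tags. Imiquimod in knockout skin lowered 1 member past the threshold, Skint3, beside 2.52% of all genes called lower, 8.56% higher and 11.1% in either direction. Skint3 read 9.17, 8.54 and 15.9 CPM with DMSO and 1.29 and 1.68 CPM with imiquimod (-2.93 ± 0.54, adjusted p = 0.00358). All knockout DMSO libraries are female and both imiquimod libraries male, so sex and treatment cannot be told apart here except through the other groups. With a sex term Skint3 gave -1.77 (adjusted p = 0.33), and without imiquimod replicate 1 it gave -2.75 (adjusted p = 0.0924). Skint4 read 0.304 and 0.266 CPM with imiquimod (-2.31 ± 0.74, adjusted p = 0.0612), below all 3 DMSO libraries. Skint5 and Skint6 had 0 counts in all 5 knockout libraries, and Skint9 and Skint10 1 count in all, so that no further fall could be measured.

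Between knockout and Cre-negative skin with imiquimod, all male libraries, 7 members were lower and 1 was higher, beside 6.33% of all genes called lower, 11.6% higher and 17.9% in either direction. The members' median was -5.23, or -3.85 with genes of 0 counts at their bound, beside 0.02 over all genes. Of the members called lower, all but Skint3 and Skint4 entered the test through the control groups alone. The count and the median therefore describe the members and support nothing. Skint3 gave the firmest value, 104 and 60.1 CPM against 1.29 and 1.68 CPM (-5.78 ± 0.61, adjusted p = 0.000171). Skint4 followed with -4.38 ± 0.74 (adjusted p = 0.00189). Skint1 had 119 counts against 0, at least 44.4-fold lower (adjusted p = 0.00229), Skint2 was at least 17.1-fold lower (adjusted p = 0.0111), and Skint6 at least 11.9-fold lower (adjusted p = 0.00885). Skint10, with 9 counts against 0, was at least 3.09-fold lower (adjusted p = 0.0089), and Skint11, with 70 counts against 3, had a ratio of 26.1 (8.58 to 130; adjusted p = 0.0164). Skint5 and Skint9, with 2 and 5 counts in the Cre-negative libraries, did not pass (adjusted p = 0.222 and 0.0647).

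The count of members called in this comparison fell from 8 to 4 without Cre-negative imiquimod replicate 2 and to 4 without knockout imiquimod replicate 1, whereas Skint1, Skint3 and Skint4 were called under every setting run.

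Skint7 alone was higher in knockout imiquimod skin. It had 4 and 13 counts (0.304 and 1.15 CPM) in the knockout libraries and 0 in both Cre-negative libraries, at least 5.3-fold higher (adjusted p = 0.023). The call was lost without Cre-negative replicate 1 (adjusted p = 0.0745) or replicate 2 (adjusted p = 0.151), or without knockout replicate 2 (adjusted p = 0.106). Within knockout skin Skint7 read 1.02, 1.26 and 0.479 CPM with DMSO and overlapped with the imiquimod libraries (-0.25 ± 0.75, adjusted p = 0.87). On the log2 scale, the response of Skint7 to imiquimod was 8.77 ± 1.74 higher in knockout than in Cre-negative skin (adjusted p = 0.0052). The size depends on the prior count because Cre-negative imiquimod skin had 0 counts. It was the 1 member of 10 called in this test, beside 14% of all genes called higher, 9.63% lower and 23.6% in either direction. Skint3 gave -1.87 ± 0.67 (adjusted p = 0.058) and Skint4 1.19 ± 0.98 (adjusted p = 0.393). For Skint5, Skint6, Skint9 and Skint10 the difference could not be estimated, since the knockout groups held 0 or 1 count.

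The make-up of the family's tags shifted as its total fell. Tags are counted at transcript ends and were not divided by length, so shares describe each gene across libraries rather than ranking genes. Skint3 took 42.5% to 47.1% of the family's counts in wild-type and 40.1% to 52.1% in Cre-negative DMSO libraries. With imiquimod the share was 72.2% to 88.6% and 76.1% to 84.3%, and in knockout DMSO libraries it was 68.8% to 85.5%. The imiquimod and knockout DMSO ranges lay above both DMSO control ranges. Knockout imiquimod libraries gave 68% (17 of 25 counts, 95% exact binomial interval 46.5% to 85.1%) and 50% (19 of 38 counts, 33.4% to 66.6%). Intervals and bounds cover counting error only, since the tags carry no molecular identifiers that would mark independent molecules.

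Skint4 moved the other way, from 19% to 23.6% in wild-type and 17.2% to 20.1% in Cre-negative DMSO libraries to 3.79% to 8.07% and 5.7% to 6.73% with imiquimod, and to 8.18% to 11.7% in knockout DMSO libraries. Skint7 took 0.661% to 0.917% and 1.06% to 1.36% of the family's counts in the DMSO control groups. It took 2.58% to 10.2% in knockout DMSO libraries, and 16% (4.54% to 36.1%) and 34.2% (19.6% to 51.4%) in the knockout imiquimod libraries. In the control imiquimod libraries it took 0 of 844, 1 of 1153, 0 of 859 and 0 of 1174 counts. A library with 0 of 859 has an upper limit of 0.429%, below each of the knockout intervals.

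**Figure D3:**
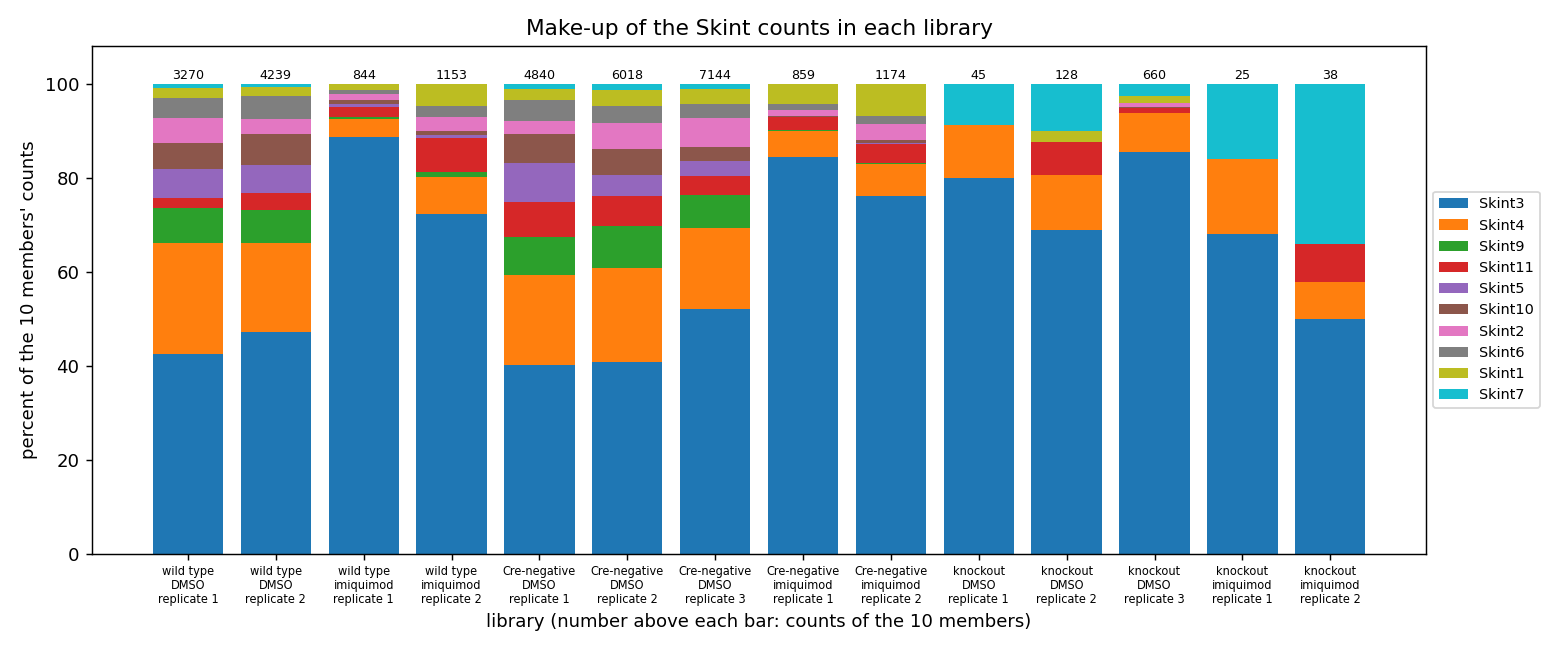
Percent of the 10 members' counts that each member took in each library, with the number of counts above the bar. Skint3 fills 40.1% to 52.1% of the DMSO control bars and 50% to 88.6% of the others, and Skint7 is visible mainly in the 5 knockout bars, which rest on 25 to 660 counts.

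Ratios of counts within a library do not depend on scaling between libraries. The pairs were picked after their values were seen, and are given without a test. Skint5 had 1.04 to 1.83 counts per count of Skint6 in the 5 control DMSO libraries and 0.05 to 1 in the 4 control imiquimod libraries, although the windows printed above differ at 26 of 248 aligned bases. Skint10 had 0.755 to 2.44 counts per count of Skint11 with DMSO and 0.0909 to 0.333 with imiquimod, ranges that do not overlap. Skint9, whose window has the same aligned letters TGGCTCA as that of Skint10, had 1.07 to 2.25 counts per count of Skint10 with DMSO and 0.429 to 1.22 with imiquimod, ranges that overlap. Skint4 had 0.33 to 0.556 counts per count of Skint3 in control DMSO libraries, 0.0428 to 0.112 in control imiquimod libraries, 0.0957 to 0.17 in knockout DMSO and 0.158 to 0.235 in knockout imiquimod libraries. Whether the upstream letters have a part in these ratios was not tested.

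Genes expressed by the T cells that Skint1 selects, not all of them particular to those cells, were read in the same libraries. The list of dendritic epidermal T cell and gamma-delta receptor genes has 27 entries, of which 25 were found and 18 tested. In knockout against Cre-negative DMSO skin 15 of the 18 were lower and 0 higher, with a median of -3.45, and against wild-type DMSO skin 13 were lower. Over all genes, 15.7% and 14.4% were called lower in these comparisons. Cd3g, Trdv4, Cd3e and Prf1 had 2, 2, 4 and 4 counts over the knockout DMSO group. List genes this low there entered the test through groups where they were higher. The counts of list genes called and the medians, here and with imiquimod below, therefore describe the list and support nothing. Cd3e, part of the CD3 complex, gave -5.09 ± 0.86 (adjusted p = 0.00083), Cd247, its zeta chain, -3.30 ± 0.55 (adjusted p = 0.00075), Cd7, a surface protein of T and natural killer cells, -2.75 ± 0.41 (adjusted p = 0.00038), and Prf1, the pore-forming protein of cytotoxic cells, -5.62 ± 0.65 (adjusted p = 5.8e-05). These 4 were the members of the list with the smallest p.

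Receptor genes, named after their values were seen, did not all follow. Trgc1, a gamma constant region gene used by these cells, had 95, 72 and 40 counts in Cre-negative and 0, 8 and 1 in knockout DMSO libraries (-4.02 ± 1.01, adjusted p = 0.011). It had 36 and 11 counts in Cre-negative and 0 and 0 in knockout imiquimod libraries (adjusted p = 0.014). Trdv4, the delta variable gene of these cells, had 33, 17 and 13 counts against 0, 2 and 0 with DMSO (-4.50 ± 1.18, adjusted p = 0.013), and 11 and 2 against 0 and 0 with imiquimod (adjusted p = 0.048). Trdc, the delta constant gene that all gamma-delta T cells share, read 4.3 to 5.65 CPM in Cre-negative and 7.75 to 12.1 CPM in knockout DMSO libraries (0.93 ± 0.44, adjusted p = 0.13). Tags of Trdc thus stood higher in every knockout DMSO library, short of the threshold, while tags of Trgc1 and Trdv4 were at or near 0.

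With imiquimod, 6 of the 18 list genes were lower and 1 higher in wild-type skin (median -2.09), and 3 were lower and 0 higher in Cre-negative skin (median -1.02). Over all genes, 11.8% and 10.1% were called lower in these comparisons, and 9.59% and 8.15% higher. In knockout skin 3 were higher and 0 lower (median 0.67), beside 8.56% of all genes called higher. They were Prf1 (4.37 ± 0.70, adjusted p = 0.0015), Fcer1g (3.48 ± 0.50, adjusted p = 0.00077) and Jaml (2.44 ± 0.41, adjusted p = 0.002). Between knockout and Cre-negative imiquimod skin Fcer1g and Jaml were higher and Trgc1 and Trdv4 lower, beside 11.6% of all genes called higher and 6.33% lower. Fcer1g, an Fc receptor signalling chain, and Jaml, an adhesion protein, are also expressed by myeloid cells. The list's summed level was 29.8 to 46.8 CPM in knockout DMSO libraries, 83.5 to 111 CPM in Cre-negative DMSO libraries and 133 to 263 CPM in knockout imiquimod libraries. In the last group Fcer1g read 128 and 49 CPM and Jaml 109 and 62.6 CPM, while Cd3e, part of CD3, read 0.152 and 0.0886 CPM and Trgc1 and Trdv4 had 0 counts. Without Fcer1g and Jaml, left out after their values were seen, the sums were 14 to 18.6, 57.5 to 80.9 and 21.5 to 26.1 CPM in the same order of groups. Of its 25 genes, 3, 3 and 5 had 0 counts in those groups. The Skint levels and the T cell levels were measured in the same bulk libraries, and a part of one in the other was not tested.

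**Figure D4:**
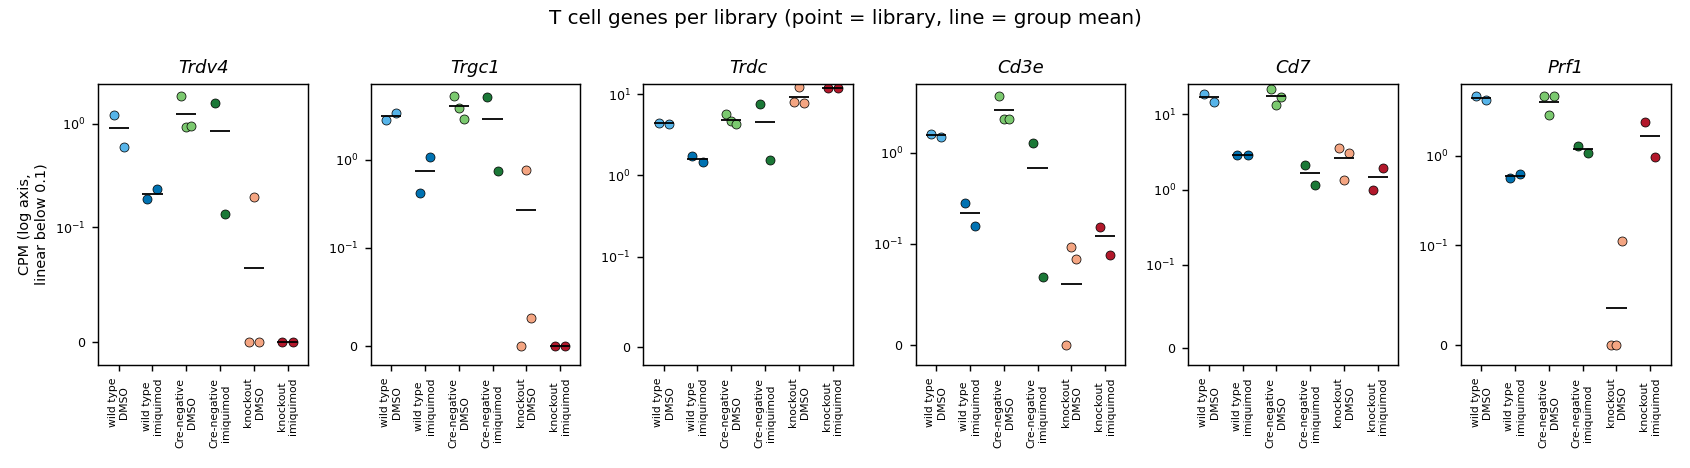
Levels of 6 T cell genes in the 14 libraries, on the same axis of CPM as the plot of the members. Trdv4, Trgc1, Cd3e, Cd7 and Prf1 lie lower in knockout than in control DMSO skin, and Trdc lies higher, at 7.75 to 12.1 against 4.3 to 5.65 CPM in Cre-negative libraries.

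Of 15 other butyrophilin and B7-like genes listed, 14 were found and 4 tested, with 1 higher and 0 lower in knockout against Cre-negative DMSO skin, beside 29.6% of all genes called in either direction. Cd276, a B7-family immune checkpoint protein, was the higher one (1.30 ± 0.34, adjusted p = 0.012). Btnl9, a butyrophilin-like gene, gave -0.84 ± 0.59 there (adjusted p = 0.3) and was lower in knockout than in wild-type DMSO skin (-1.91 ± 0.63, adjusted p = 0.039). It was also lower with imiquimod in wild-type skin (-4.32 ± 0.84, adjusted p = 0.0038) and in Cre-negative skin (-2.41 ± 0.79, adjusted p = 0.049). Cd274, which encodes PD-L1, was higher with imiquimod in wild-type skin (2.20 ± 0.44, adjusted p = 0.0046) and in Cre-negative skin (1.24 ± 0.39, adjusted p = 0.04). Pdcd1lg2, which encodes PD-L2, gave 1.59 ± 1.07 in knockout against Cre-negative DMSO skin (adjusted p = 0.28).

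A list of genes for contact between keratinocytes and epidermal T cells, not all of them keratinocyte ligands, had 9 tested. Of these, 3 were higher and 2 lower in knockout against Cre-negative DMSO skin (median 1.08), beside 14% and 15.7% of all genes. H60c, a ligand of the activating receptor NKG2D, rose (1.08 ± 0.34, adjusted p = 0.03), as did Plet1 (1.6 ± 0.42, adjusted p = 0.012). Cxadr, the ligand of the T cell protein JAML, fell (-1.41 ± 0.34, adjusted p = 0.0077), as did Il15, a cytokine that maintains such cells (-1.86 ± 0.49, adjusted p = 0.012).

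Keratinocyte and other cell markers also differed between the groups. In knockout against Cre-negative DMSO skin, 15.7% of all genes were called lower and 14% higher. Of 19 suprabasal genes 8 were lower and 1 higher there (median -1), with summed levels of 14700 to 39200 CPM against 34600 to 47300 CPM. Krt77 (-11.19 ± 0.96, adjusted p = 6e-06) and Krt10 (-7.53 ± 0.92, adjusted p = 8.8e-05), keratins of suprabasal cells, were among them. Of 14 basal genes 6 were higher, with Krt14 at 2.65 ± 0.37 (adjusted p = 0.00022), and 4 lower, with Krt15 at -6.13 ± 0.40 (adjusted p = 1.3e-06). Summed basal levels were 16000 to 20700 CPM against 5800 to 7930 CPM. Krt14 made up most of the knockout sums, with 17600, 12200 and 16800 CPM in knockout and 2320, 3100 and 2000 CPM in Cre-negative DMSO libraries. Without Krt14, left out after its values were seen, the sums were 1910 to 3930 CPM in knockout and 3800 to 4830 CPM in Cre-negative DMSO libraries. In knockout against Cre-negative imiquimod skin 18 of 19 suprabasal genes were lower, beside 6.33% of all genes.

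Of 14 hair follicle and sebaceous gland genes 11 were lower and 1 higher in the DMSO comparison (median -3.35), with summed levels of 1530 to 2370 CPM against 2610 to 3040 CPM. Of 10 Langerhans cell genes 8 were lower (median -3.4; 443 to 658 against 1060 to 1420 CPM). All 10 skeletal muscle genes were lower (median -2.4, 2130 to 3390 against 9250 to 24900 CPM), and 3 of 10 fibroblast genes (median -0.89, 1640 to 2810 against 3310 to 3460 CPM). Over all genes, 15.7% were called lower in that comparison. With imiquimod in Cre-negative skin, in which 8 of 10 Skint members were also lower, all 10 muscle genes were lower. Of 14 follicle genes 8 were lower and 1 higher, with summed levels of 2960 to 3080 CPM against 2610 to 3040 CPM with DMSO. Langerhans cell genes were lower for 5 of 10 and fibroblast genes for 3 of 10, with 0 higher in both lists. Of 19 suprabasal genes 3 were lower and 2 higher, and of 14 basal genes 4 were lower and 1 higher. Among all genes 10.1% were called lower and 8.15% higher with imiquimod there. Every gene of these lists had counts in each of these groups, except 1 Langerhans cell gene with 0 in knockout DMSO skin. Far2 and Awat2 of the follicle list had 1 and 5 counts over the knockout DMSO group, and Cd207 of the Langerhans cell list had 0. Such genes entered the test through groups where they were higher, so the counts called describe these lists. The part of the lists in the Skint results was not tested.

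Within 500 kb of the cluster the table lists 25 other genes, of which 4 had enough counts for the test. All 4 lie outside the span of the Skint rows. The 15 inside it are predicted genes or pseudogenes with at most 79 counts (Gm12816). Bend5, a gene of the BEN domain class, rose in knockout against Cre-negative DMSO skin, from 1.17, 0.657 and 0.437 CPM to 3.57, 3.2 and 4.4 CPM (2.28 ± 0.55, adjusted p = 0.0077). Against wild-type DMSO skin, at 1.3 and 5 CPM, Bend5 did not pass (0.22 ± 0.57, adjusted p = 0.81). Spata6 (-0.63 ± 0.42, adjusted p = 0.27), Slc5a9 (-0.81 ± 0.46, adjusted p = 0.2) and Trabd2b (-0.54 ± 0.54, adjusted p = 0.48) did not pass against Cre-negative DMSO skin. Against wild-type DMSO skin Trabd2b was lower (-1.98 ± 0.58, adjusted p = 0.024), and Spata6 and Slc5a9 did not pass. Slc5a9, a sugar transporter gene adjacent to the cluster, moved opposite to its Skint neighbours with imiquimod. It rose in wild-type skin from 10.8 and 3.76 CPM to 21.1 and 27.3 CPM (1.75 ± 0.56, adjusted p = 0.04) and in Cre-negative skin from 7.83, 8.04 and 9.91 CPM to 38.4 and 16.4 CPM (1.67 ± 0.49, adjusted p = 0.031). In knockout skin it fell from 3.82, 3.79 and 6.65 CPM to 0.609 and 1.59 CPM (-2.16 ± 0.59, adjusted p = 0.032), and the 2 responses differed (-3.83 ± 0.77, adjusted p = 0.0048).

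Across the 14 libraries the members varied together to unequal degrees. Pairwise Pearson r of log2 CPM over 45 pairs had a median of 0.914, from 0.215 for Skint3 with Skint7 to 0.994 for Skint9 with Skint10. With the mean of the 10 members, which includes each of them, r was 0.989 for Skint4, 0.887 for Skint3 and 0.554 for Skint7. The libraries share the group structure, so these values describe that structure and carry no p.

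The 5 other named genes nearest to that mean, among 13784 ranked, were Bbox1 (r = 0.991), Alox12e (0.987), Prlr (0.986), Tnfrsf19 (0.985) and Npbwr1 (0.984). Bbox1, an enzyme of carnitine synthesis, had 44.6 ± 15.1 CPM (n = 3) in Cre-negative DMSO, 1.24 ± 0.891 CPM (n = 2) in Cre-negative imiquimod and 0.176 ± 0.197 CPM (n = 3) in knockout DMSO skin. Alox12e, an epidermal lipoxygenase, had 149 ± 44.9, 1.71 ± 0.225 and 0.0929 ± 0.0973 CPM in the same groups. Tnfrsf19, a receptor of the tumour necrosis factor family, had 170 ± 16.4, 11.3 ± 2.92 and 4.21 ± 2.05 CPM. Prlr, the prolactin receptor, had 43.1 ± 6.94, 5.06 ± 1.36 and 1.44 ± 0.152 CPM. Npbwr1, a neuropeptide receptor, had 7.59 ± 1.36 and 0.312 ± 0.035 CPM, and 0 in knockout DMSO skin. These genes were ranked by that likeness, so their values are a description.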

How the data were processed

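Skin RNA was measured with a QuantSeq forward kit, which sequences tags next to the poly(A) tail of transcripts. The authors deposited raw counts per gene and an exon length column, which per the file headers is in another unit, bases, and entered no result. STAR, featureCounts, DESeq2, GRCm38 and GRCm39 are named, without roles or versions, in the submitters' processing notes, and the strand setting is not given in the sources used here. Of 2693 genes of chromosome 4 shared with a GRCm38 annotation, 723 have the same start, and 0 Skint rows do, so positions are taken as GRCm39.

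Genes were kept with edgeR's filterByExpr, scaled by TMM and fitted with 1 quasi-likelihood model of 6 group means over 14 libraries (edgeR 4.0.16, limma 3.58.1, R 4.3.3). For 8 comparisons, p-values of that edgeR model were adjusted by Benjamini and Hochberg's method over all genes tested, with a threshold of 0.05. The value after a fold change is its standard error, derived from the F statistic. The procedure was tested on simulated counts. CPM use TMM-scaled library sizes, and log2 CPM a prior count of 2. Groups with 0 counts were bounded by 3 counts over the group, and 1 to 3 counts are given as a ratio with a 95% exact counting interval.

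The members and lists were chosen with earlier results of these data known. Named were all members, other Skint rows, genes within 500 kb, up to 4 genes per list with the smallest p in knockout against Cre-negative DMSO skin, and the 5 established genes most like the members' mean. Alternatives were DESeq2 1.42.0, other scalings and filters, the compared groups alone, a replicate block, a sex term, omission of the 2 libraries highest in 18S, and of each library in turn. Same-numbered Cre-negative and knockout DMSO libraries deviated together from their group means (r = 0.26, 0.102 and 0.166), while same-numbered libraries of other groups reached 0.493. Any pairing would come from the correlation, not from the labels. Promoter windows were aligned locally with Biopython 1.88.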

Additional observations from a re-analysis of the deposited data

Results flagged for a closer look

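The imiquimod response of Skint7 differed between knockout and Cre-negative skin by 8.77 on the log2 scale in the test of the difference itself (edgeR adjusted p = 0.0052). The DMSO libraries held 53, 82 and 76 counts of Skint7 in Cre-negative and 4, 13 and 17 in knockout skin. The imiquimod libraries held 0 and 0 counts in Cre-negative and 4 and 13 in knockout skin. With 0 counts in Cre-negative imiquimod skin, the fitted size depends on the prior count and is no bound, also in its range of 7.58 to 9.46 over 19 other settings (adjusted p from 3.7e-06 to 0.0343). The fall in Cre-negative skin is bounded as at least 31.5-fold.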

How the results depend on the processing

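With DESeq2, the count of Skint members called was 2 for imiquimod in knockout skin and 4 for the difference between responses, and without a low-count filter it was 3 and 2. The 4 include Skint5 (7.48) and Skint9 (6.05), whose knockout groups held 0 or 1 count, so those sizes are not estimates of a response. A sex term gave 0 for imiquimod in knockout skin. Without the 2 libraries highest in 18S, 5 members were called for imiquimod in Cre-negative skin, 4 for knockout against Cre-negative imiquimod skin and 2 for the difference between responses. Leaving out 1 library at a time gave 5 to 7 for imiquimod in Cre-negative skin, 5 to 9 in wild-type and 0 to 1 in knockout skin, 1 to 2 for the difference between responses, 9 to 10 with DMSO and 4 to 7 with imiquimod for knockout against Cre-negative skin, and 9 for knockout against wild-type DMSO skin. A group left with 1 library is assumed to vary like the others. The cause of these shifts was not tested. No member reversed its direction in a call. With library size alone the median of all genes moved by -0.67 to 0.73 between comparisons, and 10, 9, 8, 8 and 8 members were called in knockout against Cre-negative and wild-type DMSO skin, imiquimod in wild-type and Cre-negative skin, and knockout against Cre-negative imiquimod skin. Over all groups, same-numbered libraries correlated over 0.1 in 11 of 31 pairs (-0.32 to 0.493). Deviations within a group of 2 libraries mirror each other, so both pairs between 2 such groups give 1 value. Both pairs of wild-type and knockout imiquimod libraries, for example, gave 0.296, so the 31 pairs are not all separate. The highest values, 0.493 and 0.414, were between wild-type imiquimod and knockout DMSO libraries. The Cre-negative and knockout DMSO pairs thus do not stand out, and whether same-numbered libraries share more than a number cannot be told. A fit with the replicate block called all 10 members in knockout against Cre-negative DMSO skin, 2 for the difference between responses, 8 for imiquimod in wild-type skin, and changed no other call. Knockout imiquimod skin holds 63 family tags, so member values there are the least precise.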
